A study of Mus musculus with 18 samples.

Results

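Knockdown of Mtfr1l alone was compared with a non-targeting short hairpin RNA (shRNA) in heart fibroblasts undergoing direct cardiac reprogramming. The comparison used 6 of the 18 samples of the series: 3 bulk RNA sequencing libraries labelled shMtfr1l and 3 labelled shNT, picked by their labels alone from the second of its sample sets. The cells were primary fibroblasts from neonatal CD1 mice, and every group used here also received the retroviral reprogramming vector, on which Mef2c, Gata4 and Tbx5 share 1 transcript. The titles give day 7, 8 and 9 to replicates 1, 2 and 3 of each group. 2 further groups of the same set, shOpa1 and shMtfr1l together with shOpa1 (the double knockdown), had 3 libraries each. They served to estimate the spread between libraries and to ask whether the effect of Mtfr1l knockdown was the same beside Opa1 knockdown. In the genotype field the Opa1 shRNA of these groups counts up from shOpa1 to shOpa3 over the replicates, and the sources used here do not say what the numbers stand for. The labels name no sorting of transduced or reprogrammed cells, so each library mixes fibroblasts and cells at any stage of conversion. Fewer cells of a type and less RNA per cell cannot be told apart in such libraries. The labels call the libraries biological replicates but name no separate animals or cell isolations. The p-values therefore speak only of the spread between these libraries. The lists of genes used below were drawn up with earlier results of these data known.

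In direct reprogramming a few cardiac transcription factors push fibroblasts towards a muscle programme without a stem cell stage, and most transduced cells convert only in part. The cells shut down matrix genes, assemble sarcomeres, build a calcium store in the sarcoplasmic reticulum and depend more on mitochondria for energy. Mtfr1l belongs to the mitochondrial fission regulator family and sits on the outer mitochondrial membrane, where it is known as a target of the energy sensor AMPK that limits mitochondrial elongation. Opa1 is the GTPase that fuses inner mitochondrial membranes. The series asks through which changes loss of Mtfr1l acts on reprogramming.

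Mtfr1l followed the labels in every library. Its level was 69.4, 69.5 and 76.7 CPM in shNT and 15.7, 13.9 and 19.5 CPM in shMtfr1l (CPM, its count scaled to the size of the library). The groups did not overlap, and the gene (mm10 chromosome 4, 134525555 to 134535387, minus strand) fell 4.38-fold (log2 fold change -2.13 ± 0.11 with its SE, and adjusted p = 2.81e-16 by edgeR's quasi-likelihood test). Opa1, the partner in mitochondrial shape, stood at 57, 72.6 and 59.7 CPM in shNT and 70.7, 72.2 and 73.4 CPM in shMtfr1l, a log2 difference of 0.19 ± 0.16 that did not pass the threshold (adjusted p = 0.583). Among 27 tested genes of mitochondrial fission, fusion and the outer membrane, a list that leaves out Mtfr1l itself, 3 rose and none fell. Of all genes tested 5.56% passed as higher and 5.19% as lower. Only 1 of the 27 rose without replicate 2 of shNT, replicate 1 of shMtfr1l, or replicate 1 or 2 of every group. The 3 were Mfn2, the outer membrane fusion GTPase (1.23-fold, 102 to 125 CPM), Vdac2, a channel for metabolites (1.18-fold, 273 to 323 CPM), and March5, a ubiquitin ligase of that membrane (1.19-fold, 66 to 78.6 CPM). With 1 library left out, or 1 replicate number left out of all 4 groups, the calls ended for Mfn2 without shNT 1 or 2, shMtfr1l 1 or number 1 or 2 (adjusted p from 0.0615 to 0.25) and March5 without shNT 2 or 3, shMtfr1l 1 or 3 or number 1 or 2 or 3 (adjusted p from 0.0708 to 0.162).

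A gene was called when its Benjamini-Hochberg adjusted p lay below 0.05. Of 14162 genes tested 1523 were called (10.8%), 788 of them higher in shMtfr1l (5.56%) and 735 lower (5.19%), and 3100 had an unadjusted p below 0.05. Most changes were small: the median fold was 1.27 among the genes called higher and 1.31 among those called lower, and 168 and 180 genes passed 1.5-fold. Separate groups, with all 3 libraries of one above all 3 of the other, were found for 3679 of all genes tested (26%) and for 1467 of the called ones. Below, a call is said to end for a gene when it missed the threshold with 1 library left out (shNT 1 is replicate 1 of shNT) or with 1 replicate number left out of all 4 groups. Without replicate 1 of every group 790 genes were called, and without replicate 2 the number was 878. Calls of higher genes fell to 331 without replicate 1 of every group, beside 459 of lower genes, and to 492 when replicate 1 of shMtfr1l alone was left out. Calls of lower genes fell to 424 without replicate 2 of every group and to 486 without replicate 3.

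**Figure D1:**
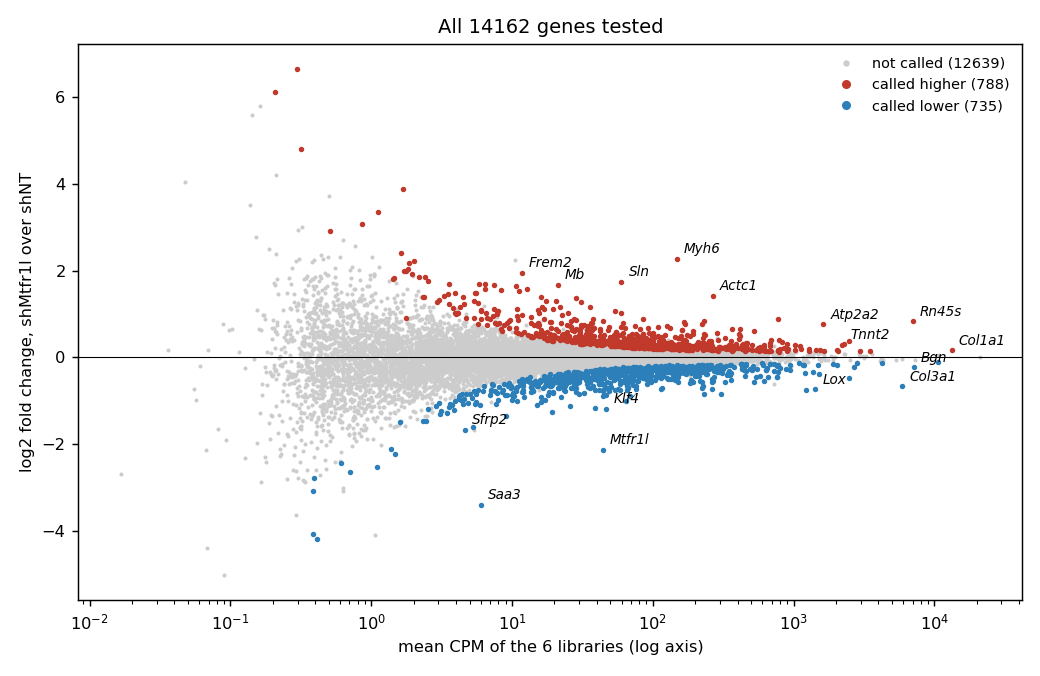
Log2 fold change of shMtfr1l over shNT (vertical axis) against the mean CPM of the 6 libraries (horizontal axis, log scale), 1 point per gene tested. Red points are the 788 genes called higher, blue points the 735 called lower, and the labels mark genes named in the text. Calls reach across the whole range of levels, and abundant genes are called at small folds.

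Library totals ran from 16205862 to 23527030 gene counts in shNT and from 17175325 to 19740165 in shMtfr1l, which puts the floor of 3 counts at 0.129 to 0.183 CPM. Chi-square per gene between libraries of the same group was 5.31 to 9.01, so none was a copy of another. On the first principal component of the 6 libraries (29.2% of the variance) shNT lay between -33.4 and -13.7 and shMtfr1l between 7.09 and 34.0. The second component (24.0%) set the shMtfr1l libraries apart from each other, at 9.40, 40.5 and -24.3. The entry of the ribosomal RNA precursor, Rn45s, was the gene that gained most CPM (3967, 5351 and 5837 CPM in shNT and 10154, 8758 and 8173 CPM in shMtfr1l). It was as high in the groups with Opa1 knockdown (9343, 9549 and 9627 CPM in shOpa1 and 8081, 9416 and 10709 CPM in the double knockdown), and its part in the results was not tested. With Rn45s and the leucyl-tRNA synthetase entry Lars2, which moved like it, taken out of the counts, 1521 genes were called. Calls ended for Rn45s without number 2 or 3 and with the 2 groups alone (adjusted p from 0.0558 to 0.176) and Lars2 without number 2 or 3 (adjusted p from 0.1 to 0.152).

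Contractile genes were among the largest rises. Of 73 tested genes in 6 sarcomere lists 32 rose and 3 fell (Myh8, Tpm2 and Acta2), against shares of 5.56% and 5.19% over the whole table. Myh6, the alpha myosin heavy chain of the adult mouse heart (mm10 chromosome 14, 54941921 to 54966607, minus strand), had the largest fold higher among called genes with separate groups and 2 CPM or more on average. It stood at 45.6, 50.8 and 56 CPM in shNT and 263, 232 and 241 CPM in shMtfr1l, so the lowest shMtfr1l library held several times the level of the highest shNT library. Its rise of 4.82-fold (log2 2.27 ± 0.16; adjusted p = 1.34e-05) moved the mean from 50.8 ± 5.18 to 245 ± 16.3 CPM (SD, n = 3). Myh7, the beta chain of slow muscle and the fetal heart, was at 4.15, 2.76 and 3.73 CPM in shNT and 10.6, 13 and 10.4 CPM in shMtfr1l, a rise of 3.2-fold (adjusted p = 5.55e-05). Myh8, the perinatal skeletal myosin, went the other way at 31.4, 35.2 and 39 CPM in shNT and 13.3, 13.9 and 21.2 CPM in shMtfr1l (2.19-fold lower, adjusted p = 0.025). Per unit of transcript length Myh6 made up 93.4% ± 1.63 of Myh6 and Myh7 together in shNT and 95.5% ± 0.765 in shMtfr1l (SD, n = 3), with ranges of 91.6% to 94.8% and 94.7% to 96.1% that overlap by a little. The light chains of atrial muscle, Myl4 (1.13-fold) and Myl7 (1.24-fold), rose far less than the heavy chains, while the ventricular Myl2 had means of only 1.98 and 2.21 CPM and was not called. Calls ended for Myh8 without shNT 1 or 2 or 3, shMtfr1l 1 or 2 or number 1 or 2 (adjusted p from 0.0514 to 0.172), Myl4 without shNT 2, shMtfr1l 3 or number 2 or 3 (adjusted p from 0.0968 to 0.173), Myl7 without shNT 1 or 2, shMtfr1l 1 or 3 or number 1 and with the replicate block (adjusted p from 0.0584 to 0.415) and Tpm2 without number 1 (adjusted p = 0.0766).

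To show what sits in front of some contractile genes that rose, the 250 bases before the start of Myh6, Actc1 and Tnni3 are printed. They run 5′ to 3′ along the gene's strand, from RefSeq on build GRCm38.p6, the assembly behind mm10. These genes were not picked by the size of their rise alone, and several other contractile genes rose by more than Tnni3. Capitals mark matches of the motifs named after each, on either strand. The Myh6 stretch (chr14:54966608-54966857, minus strand) holds GGAATG, the core bound by TEAD factors. The Actc1 stretch (chr2:114052876-114053125, minus strand) holds a CArG box, the element bound by serum response factor, and CCAAT in reverse. The Tnni3 stretch (chr7:4522529-4522778, minus strand) holds AGGTGTGA, the core bound by T-box factors such as Tbx5.
Myh6: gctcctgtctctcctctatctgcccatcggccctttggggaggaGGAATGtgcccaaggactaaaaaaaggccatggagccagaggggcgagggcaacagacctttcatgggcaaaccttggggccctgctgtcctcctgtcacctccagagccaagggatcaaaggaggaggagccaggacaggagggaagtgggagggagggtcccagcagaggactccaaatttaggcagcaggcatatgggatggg
Actc1: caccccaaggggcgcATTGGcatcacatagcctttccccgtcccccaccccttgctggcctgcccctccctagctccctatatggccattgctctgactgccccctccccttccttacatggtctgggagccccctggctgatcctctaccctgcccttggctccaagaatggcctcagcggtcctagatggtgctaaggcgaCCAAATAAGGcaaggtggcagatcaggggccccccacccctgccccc
Tnni3: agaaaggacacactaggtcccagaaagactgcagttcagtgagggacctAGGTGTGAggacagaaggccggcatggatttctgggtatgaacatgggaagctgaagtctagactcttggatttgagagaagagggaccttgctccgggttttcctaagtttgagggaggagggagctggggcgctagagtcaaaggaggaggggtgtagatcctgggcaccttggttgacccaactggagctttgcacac

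Over windows that add the first 50 bases after the start, 60 of the 73 sarcomere genes matched the promoter table. The search covered both strands and every listed start of a gene, 1.3 on average here and 1.22 over the 27025 genes of the table. GGAATG lay in 26 of them (43.3%) against 16.6% of the genes of the table, the E-box CAGCTG in 24 (40%) against 18.3%, the MEF2 site in 11 (18.3%) against 3.7% and the CArG box in 8 (13.3%) against 1.81%. Among the 29 matched members that rose, GGAATG lay in 10 (34.5%) and the MEF2 site in 4 (13.8%). The T-box core, AGGTGTGA or GGTGTGAA, was found in Tnni3 only (1.67%, against 2.07% of the table). A match says that the letters are there and no more.

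Actc1, the cardiac alpha actin, rose 2.68-fold, with 141, 147 and 148 CPM in shNT and 420.4, 367 and 381 CPM in shMtfr1l (log2 1.42 ± 0.10; adjusted p = 2.03e-07). Acta2, the smooth muscle actin of myofibroblasts, was an order of size more abundant and fell 1.17-fold, at 3036, 2816 and 2800.1 CPM in shNT and 2543, 2438 and 2434 CPM in shMtfr1l (adjusted p = 9.58e-05). Neither gene's groups overlap, and the balance of the pair moved: per transcript length Actc1 made up 8.55% ± 0.548 of both in shNT and 22.5% ± 0.835 in shMtfr1l (SD, n = 3). Acta1, the skeletal actin that the young heart also makes, rose 2.33-fold from a low level (2.32, 2.5 and 1.65 CPM in shNT and 6.91, 2.63 and 5.51 CPM in shMtfr1l), and its call ended without shNT 3, shMtfr1l 1 or number 1 or 3 (adjusted p from 0.0772 to 0.253).

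The troponins, which make the thin filament answer to calcium, and the tropomyosins that run beside them had 4 of 11 tested genes higher and 1 lower. Tnnc1, the calcium-binding subunit, stood at 9.22, 7.62 and 9.6 CPM in shNT and 24.3, 21.1 and 24 CPM in shMtfr1l (2.63-fold, adjusted p = 6.93e-08). Tnni3, the adult cardiac inhibitory subunit, stood at 14.3, 14.1 and 12 CPM in shNT and 26.9, 28.5 and 35.2 CPM in shMtfr1l (2.24-fold, adjusted p = 5.10e-07), whereas its fetal counterpart Tnni1 had means of 10.6 and 11.6 CPM and was not called. Per transcript length Tnni3 held 63.4% ± 7.85 of the pair in shNT (55.4% to 71.1%) and 77.9% ± 0.242 in shMtfr1l (77.6% to 78.0%; SD, n = 3). Tnnt2, the tropomyosin-binding subunit and the most abundant of the list, rose 1.23-fold from 2035 ± 28.7 to 2507 ± 88.9 CPM. Of the tropomyosins Tpm1 rose 1.11-fold and Tpm2, more typical of smooth muscle and fibroblasts, fell 1.24-fold. Calls ended for Tpm1 without shNT 2, shMtfr1l 3 or number 1 or 2 or 3 (adjusted p from 0.0905 to 0.11) and Tpm2 without number 1 (adjusted p = 0.0766).

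Of 16 tested genes of titin, the M-band and the thick filament 9 rose and none fell (median log2 0.76, against 0.0029 over all genes tested). Myom2, an M-band protein that crosslinks thick filaments, was at 108, 129 and 124 CPM in shNT and 226, 206 and 202 CPM in shMtfr1l (1.75-fold, adjusted p = 2.97e-10). Unc45b, the chaperone that folds myosin (1.8-fold), Mybpc3, the cardiac myosin-binding protein mutated in hypertrophic cardiomyopathy (1.73-fold), and Myom1 (1.42-fold) rose as well. Ttn, titin itself, was at 89.9, 93.4 and 109 CPM in shNT and 161, 127 and 102 CPM in shMtfr1l and was not called (adjusted p = 0.262). It was called without replicate 3 of every group (log2 0.65, adjusted p = 2.43e-04) and without robust estimation (adjusted p = 0.0490).

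At the Z-disc, where thin filaments are anchored, 13 of 27 tested genes rose and none fell. Csrp3, a mechanical stress sensor of the Z-disc, was at 18.3, 18.9 and 17.1 CPM in shNT and 45.7, 41.4 and 44.1 CPM in shMtfr1l (2.42-fold, adjusted p = 4.23e-11), and its libraries were tight within each group. Cap2, an actin filament severing protein of striated muscle, rose 2.1-fold (32.1, 37.2 and 35.6 CPM in shNT and 76.1, 67.6 and 77 CPM in shMtfr1l). Actn2, the muscle alpha-actinin often used as a sarcomere stain, rose 2.99-fold (6.96, 7.62 and 4.59 CPM in shNT and 18.2, 19.9 and 19.2 CPM in shMtfr1l). Des, the muscle intermediate filament, rose 1.4-fold with almost no spread in shNT (346, 347 and 347 CPM in shNT and 497, 467 and 488 CPM in shMtfr1l). Ldb3 (1.54-fold) and Ankrd1 (1.28-fold) completed the 6 members with the smallest adjusted p.

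**Figure D2:**
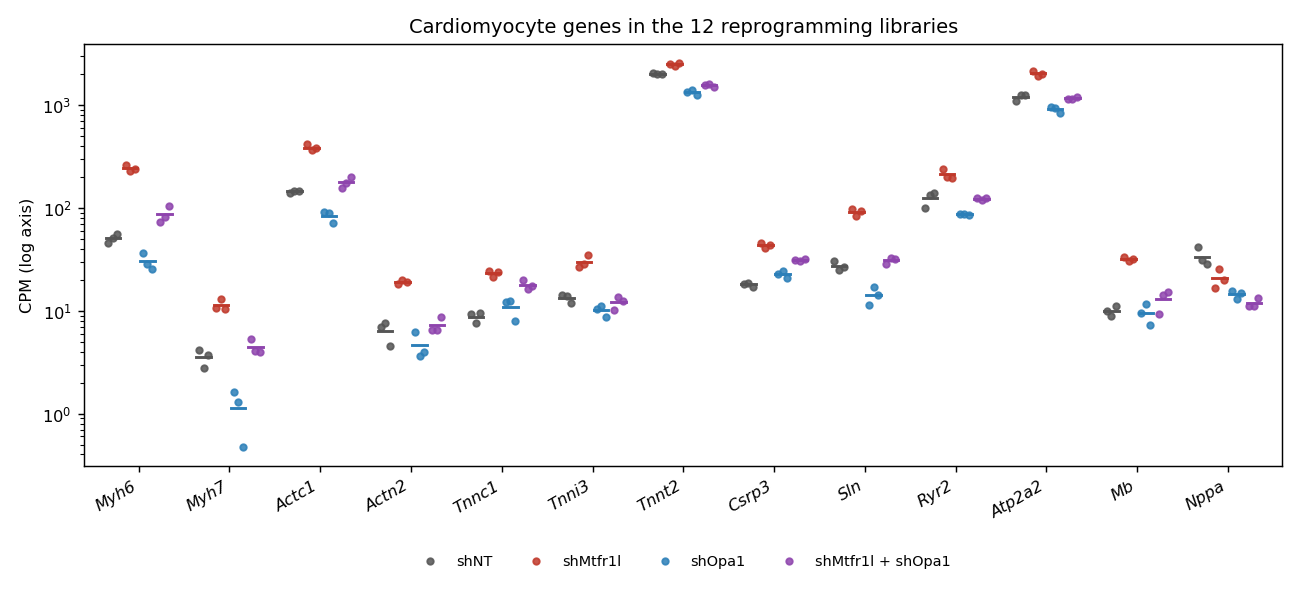
CPM (log axis) of 13 cardiomyocyte genes in the 12 reprogramming libraries: each dot is a library, each short line the mean of 3, in shNT (grey), shMtfr1l (red), shOpa1 (blue) and the double knockdown (purple). For 12 of the genes the red dots lie above all grey ones, and for Nppa they lie below.

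Of 17 tested genes of the calcium store 7 rose and none fell. The summed level of the list was 2466, 2658 and 2644 CPM in the shNT libraries and 3908, 3569.9 and 3726 CPM in the shMtfr1l libraries. Most of that gain was in Atp2a2, the pump SERCA2 that refills the store, at 1094, 1266 and 1261 CPM in shNT and 2178, 1946 and 2034 CPM in shMtfr1l (1.7-fold, adjusted p = 5.19e-09). Sln, sarcolipin, a small inhibitor of that pump typical of atrial muscle, was at 30.8, 24.8 and 26.9 CPM in shNT and 97.4, 84.5 and 94.2 CPM in shMtfr1l, a rise of 3.35-fold (log2 1.75 ± 0.11; adjusted p = 2.28e-14). The release side rose too, with Ryr2, the release channel, at 101, 135 and 140.5 CPM in shNT and 240.1, 200.2 and 199 CPM in shMtfr1l (1.7-fold), and Trdn, which links it to the calcium buffer calsequestrin, at 22.3, 21.4 and 23 CPM in shNT and 50.6, 48 and 50.1 CPM in shMtfr1l (2.23-fold). Casq2, the buffer, rose 1.31-fold and Srl, a reticulum glycoprotein, 2.02-fold. None of these genes has overlapping groups.

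Of 26 surface channels and exchangers 6 rose (3 without replicate 1 of every group) and none fell. Kcnj5, a subunit of the acetylcholine-gated potassium channel of the atria, rose 1.54-fold (124, 130.2 and 127 CPM in shNT and 208, 185 and 196 CPM in shMtfr1l). Kcnh2, a repolarising potassium channel (1.56-fold), Slc8a1, the sodium-calcium exchanger (1.2-fold), and Popdc2 (1.34-fold) were higher as well. Of 14 gap junction and intercalated disc genes 3 rose. Gja1 (connexin 43), the main ventricular gap junction protein, was at 180.4, 199.6 and 189 CPM in shNT and 281, 268 and 277 CPM in shMtfr1l (1.45-fold, adjusted p = 6.66e-09), Dsp (desmoplakin) rose 1.8-fold and Nexn (nexilin) 1.16-fold. Calls ended for Kcnh2 without number 1 (adjusted p = 0.0584), Slc8a1 without number 1 or 2 (adjusted p from 0.102 to 0.123), Popdc2 without shNT 1 or 2, shMtfr1l 1 or number 1 (adjusted p from 0.0747 to 0.308) and Nexn without shNT 1 or 3, shMtfr1l 3 or number 1 or 3 and with the 2 groups alone (adjusted p from 0.0576 to 0.493).

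The natriuretic system moved apart. Nppa, the atrial natriuretic peptide that marks the fetal and stressed heart, was at 41.5, 31.4 and 28.4 CPM in shNT and 16.7, 25.5 and 19.8 CPM in shMtfr1l and fell 1.63-fold (adjusted p = 0.00113). Corin, the protease that processes it, rose, at 14.7, 17.2 and 16.2 CPM in shNT and 43.4, 41.1 and 38.7 CPM in shMtfr1l (2.56-fold, adjusted p = 5.84e-06). Furin, another protease of this list, rose too, at 228, 224 and 241 CPM in shNT and 369, 327 and 323 CPM in shMtfr1l (1.47-fold, adjusted p = 8.20e-10). Npr3, the receptor that clears natriuretic peptides, rose 1.58-fold (19.6, 26.4 and 25.1 CPM in shNT and 41.4, 33.7 and 37.6 CPM in shMtfr1l), while Nppb had means of 2.20 and 2.40 CPM and was not called. The Nppa call ended without number 1 (adjusted p = 0.21).

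Of 16 genes for muscle oxygen and energy supply 9 rose and 1 fell. Mb, myoglobin, the oxygen store of muscle, was at 10.0, 9.0 and 11.2 CPM in shNT and 33.5, 30.5 and 32.2 CPM in shMtfr1l (3.18-fold, adjusted p = 4.20e-09), and the groups lie far apart. Ckb, brain-type creatine kinase, rose 1.61-fold (116, 95.3 and 93.2 CPM in shNT and 149.9, 178 and 161 CPM in shMtfr1l), Lpl, the lipase that frees fatty acids for muscle, 1.32-fold (639, 716 and 683 CPM in shNT and 914, 891 and 892 CPM in shMtfr1l), and Pgam2, the muscle phosphoglycerate mutase, 1.41-fold. Art3, an ADP-ribosyltransferase family member of muscle, rose 2.16-fold. Its relative Art1 was close to the floor in shNT (0.427, 0.0431 and 0.189 CPM in shNT and 2.86, 3.33 and 3.19 CPM in shMtfr1l). Its fitted 14.7-fold difference thus rests on very few shNT counts and is uncertain, with log2 fold changes from 3.31 to 4.77 over the alternative settings.

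The 3 factors on the vector were slightly higher in shMtfr1l, and their counts hold vector and endogenous transcripts alike. Mef2c was at 246, 295 and 286 CPM in shNT and 349.8, 328 and 296 CPM in shMtfr1l (1.18-fold, adjusted p = 0.0122), Tbx5 at 302, 318 and 345 CPM in shNT and 395, 358 and 357 CPM in shMtfr1l (1.15-fold, adjusted p = 0.0204) and Gata4 at 451, 477 and 517 CPM in shNT and 571, 536 and 506 CPM in shMtfr1l (1.12-fold, adjusted p = 0.0468), the last with overlapping groups. Calls ended for Mef2c without shNT 1, shMtfr1l 1 or number 1 (adjusted p from 0.103 to 0.459), Tbx5 without shNT 1 or 2, shMtfr1l 1 or number 1 or 2 (adjusted p from 0.0796 to 0.462) and Gata4 without shNT 1 or 2, shMtfr1l 1 or 2 or number 1 or 2 and with RLE size factors, with upper quartile scaling, with the 2 groups alone, with the replicate block, without robust estimation (adjusted p from 0.0577 to 0.63). The vector factors stood higher beside the cardiac rises given here, and their part in those was not tested.

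Among 25 endogenous cardiac transcription regulators 5 rose and 1 fell, and 3 rose without shNT 2 or without number 1 or 2. Hopx, a homeodomain protein without DNA binding that is known for restraining growth of heart muscle, was at 2.69, 2.67 and 2.98 CPM in shNT and 8.94, 8.7 and 9.11 CPM in shMtfr1l (3.2-fold, adjusted p = 4.57e-05). Ankrd1, a stress-responsive cofactor named above, Nfatc1 (1.46-fold), Mef2d (1.26-fold) and Vgll2 (from 0.712 to 2.81 CPM) rose, and Tead1, the main TEAD factor of the heart, fell 1.24-fold (462, 546 and 521 CPM in shNT and 439.9, 389 and 406 CPM in shMtfr1l). Calls ended for Nfatc1 without number 2 (adjusted p = 0.0791), Mef2d without shNT 1 or 2, shMtfr1l 1 or 2 or number 1 or 2 (adjusted p from 0.0695 to 0.326), Vgll2 without shNT 2, shMtfr1l 3 or number 1 or 2 or 3 (adjusted p from 0.112 to 0.134) and Tead1 without number 2 (adjusted p = 0.0783). Of the 5 skeletal muscle regulators tested none was called, and neither Myod1 nor Myog passed the count filter.

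Of 12 muscle splicing regulators 4 rose and none fell, and the number was 2 without shNT 2, shMtfr1l 1 or shMtfr1l 3 and without any of the 3 replicate numbers. Rbm24, which includes muscle exons, was at 11.3, 8.66 and 10.5 CPM in shNT and 27.8, 21.3 and 25.8 CPM in shMtfr1l (2.46-fold, adjusted p = 9.91e-07) and Rbm20, the titin splicing factor whose mutation causes dilated cardiomyopathy, at 12.8, 18.1 and 17.5 CPM in shNT and 28.5, 29.1 and 27 CPM in shMtfr1l (1.74-fold, adjusted p = 1.34e-04). Rbfox2 rose 1.14-fold and the muscle kinase Srpk3 2.61-fold from a low level. Those last calls ended for Rbfox2 without shNT 2, shMtfr1l 1 or 3 or number 1 or 2 or 3 (adjusted p from 0.0682 to 0.132) and Srpk3 without shNT 1 or 2, shMtfr1l 1 or 2 or 3 or number 1 or 2 or 3 (adjusted p from 0.0509 to 0.263). Of 24 chromatin regulators tied to reprogramming 5 rose (1 without number 1, and 3 without number 2, shNT 1, shMtfr1l 1 or shMtfr1l 2) and none fell: the DNA methyltransferase Dnmt3a (1.32-fold, 140.2, 145 and 139 CPM in shNT and 201, 189.9 and 170.5 CPM in shMtfr1l), the histone methyltransferase Mll1 (1.3-fold), the remodelling ATPase Smarca4 (1.2-fold), the demethylase Kdm6b (1.2-fold) and the deacetylase Hdac5 (1.15-fold). Calls of this group ended for Mll1 without number 1 (adjusted p = 0.0903), Smarca4 without number 1 (adjusted p = 0.139), Kdm6b without shNT 1 or 2, shMtfr1l 1 or 2 or number 1 or 2 (adjusted p from 0.0694 to 0.285) and Hdac5 without shNT 1 or 3, shMtfr1l 1 or 2 or number 1 or 2 or 3 (adjusted p from 0.0575 to 0.166).

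Nuclear genes of mitochondrial metabolism moved by small folds. The tricarboxylic acid cycle, with the genes that feed pyruvate into it, had 10 of 32 tested genes higher and 0 lower. That count was 6 without shNT 2 or without number 1 or 3, and 2 without number 2. The summed level of the list was 2698 to 2766 CPM in shNT and 2991 to 3052 CPM in shMtfr1l. Of 17 genes of complexes II and III 5 rose (1 without number 2 or 3, 2 or 3 without shNT 2, shNT 3, shMtfr1l 1 or shMtfr1l 2), led by Uqcr10 (1.43-fold, 41.5, 35.7 and 34.9 CPM in shNT and 50.3, 54.7 and 55.2 CPM in shMtfr1l). Of 20 ATP synthase genes 4 rose, among them the catalytic beta subunit Atp5b (1.22-fold, 975, 898 and 879 CPM in shNT and 1089.7, 1129 and 1132 CPM in shMtfr1l), and 2 fell, Atp5d (1.35-fold, 156, 158 and 164 CPM in shNT and 118, 114 and 123 CPM in shMtfr1l) and Atp5f1. Complex I (2 of 40 higher), complex IV (1 of 24 higher) and fatty acid oxidation (3 of 29 higher, median log2 0.02) had few calls and none lower. The median of the last list was -0.017 without replicate 3 of shMtfr1l. Chchd10, a protein of the intermembrane space that is abundant in heart, was the only one called of 20 MICOS and inner membrane scaffold genes, at 18.9, 22 and 20.1 CPM in shNT and 37.8, 35.6 and 37 CPM in shMtfr1l (1.81-fold, adjusted p = 1.45e-06). Among 40 mitochondrial carriers 4 rose, with Slc25a39, known for mitochondrial glutathione import, at 1.38-fold, and 3 fell (1 without number 2), with the citrate carrier Slc25a1 at 1.34-fold lower. Counted against the shares of all genes (5.56% and 5.19%), the members of complexes I and IV rose no more often than genes at large. The call of Atp5f1 ended without shNT 1, shMtfr1l 1 or 2 or number 1 or 2 (adjusted p from 0.114 to 0.378).

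On the fibroblast side the largest loss in CPM of any gene was that of Col3a1, the collagen of pliable connective tissue (mm10 chromosome 1, 45311538 to 45349706, plus strand). It stood at 7185, 7127 and 7455 CPM in shNT and 4633, 4456 and 4634 CPM in shMtfr1l, with no overlap and little spread, and fell 1.59-fold (log2 -0.67 ± 0.03; adjusted p = 9.57e-17). Col1a1, its partner in fibrils, was at 11625, 12800.1 and 13078 CPM in shNT and 14685, 13702 and 13618 CPM in shMtfr1l and was called 1.12-fold higher (adjusted p = 0.0195), so the collagens did not move as a block. Per transcript length Col3a1 made up 32.9% ± 1.21 of the pair in shNT and 21.6% ± 0.646 in shMtfr1l (SD, n = 3). Of 25 fibrillar collagen and assembly genes 6 fell and 3 rose (3 fell without shMtfr1l 2 or number 3, and 2 without number 2, while none rose without shMtfr1l 1 or number 1 and 5 rose with DESeq2), and the summed CPM of the list overlapped between groups (53965 to 57220.5 CPM in shNT and 52408 to 55124 CPM in shMtfr1l). Of 25 other collagens 5 fell (3 without number 2, and 2 without number 3) and 7 rose (4 without number 1). Col6a1 of the beaded filaments fell 1.24-fold and Col26a1 and Col6a6 rose 2.96-fold and 1.84-fold from low levels (3.23 to 9.56 CPM and 19.3 to 35.5 CPM). The Col1a1 call ended without shNT 1, shMtfr1l 1 or number 1 (adjusted p from 0.104 to 0.303).

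All 5 lysyl oxidases, the enzymes that crosslink collagen and elastin, fell. Lox was at 1714, 1813 and 1820.1 CPM in shNT and 1097, 1047 and 1074 CPM in shMtfr1l (1.66-fold, log2 -0.73 ± 0.04; adjusted p = 6.27e-16), Loxl4 at 132, 147 and 145 CPM in shNT and 78.1, 93.3 and 86 CPM in shMtfr1l (1.65-fold) and Loxl2 at 859, 914 and 891 CPM in shNT and 637, 661 and 641 CPM in shMtfr1l (1.37-fold). Loxl1 fell 1.15-fold and Loxl3 1.19-fold, each with groups that do not overlap. Calls ended for Loxl1 without shMtfr1l 3 or number 2 or 3 (adjusted p from 0.0537 to 0.167) and Loxl3 without shNT 3, shMtfr1l 2 or number 2 or 3 (adjusted p from 0.104 to 0.149), so 3 of the 5 fell without number 2 or 3.

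Of 14 small leucine-rich proteoglycans and lecticans, which coat and space collagen fibrils, 7 fell and none rose (median log2 -0.39). Fmod, fibromodulin, was at 78.1, 82.4 and 87.2 CPM in shNT and 54.9, 47.7 and 45.1 CPM in shMtfr1l (1.68-fold, adjusted p = 5.15e-08), and Bgn, biglycan, lost the second most CPM of all genes at a small fold (7281, 7995 and 7819 CPM in shNT and 6833, 6428 and 6522 CPM in shMtfr1l; 1.17-fold). Prelp (1.48-fold), decorin (Dcn, 1.35-fold), lumican (Lum, 1.43-fold) and aggrecan (Acan, 1.62-fold) fell as well. Among 20 microfibril and elastic fibre genes 6 fell (3 without number 2) and 1 rose: Mfap5 was at 23, 19.1 and 23.1 CPM in shNT and 12.6, 8.94 and 10.2 CPM in shMtfr1l (2.05-fold), Fbln2 at 2817, 2901 and 2903 CPM in shNT and 2024, 2158 and 2062 CPM in shMtfr1l (1.38-fold), and the one that rose was Ltbp1, which stores latent TGF-beta (1.28-fold).

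Basement membrane genes split. Frem2, of the Fraser complex that holds epithelia to their matrix, had the second largest fold higher among called genes with separate groups and 2 CPM or more on average, at 3.79, 5.25 and 5.34 CPM in shNT and 20.3, 19.1 and 16.6 CPM in shMtfr1l (3.87-fold, adjusted p = 2.56e-08), and its partner Fras1 was at 53.8, 58.7 and 67.1 CPM in shNT and 121, 111 and 97.9 CPM in shMtfr1l (1.84-fold). Nid2 rose 1.3-fold (1987, 2216 and 2241 CPM in shNT and 2973, 2674 and 2711 CPM in shMtfr1l) while its relative Nid1 fell 1.27-fold (800.0, 896 and 897 CPM in shNT and 709, 657 and 679 CPM in shMtfr1l). The laminin chains Lama4 (1.28-fold) and Lamb2 (1.23-fold) fell. In all, 5 of the 21 genes of this list rose (3 without shNT 1, shMtfr1l 1 or number 1) and 3 fell. Among 20 integrins, the receptors for such proteins, 5 rose and 2 fell: Itga8 was at 269, 302 and 279.8 CPM in shNT and 461, 419.8 and 451 CPM in shMtfr1l (1.57-fold), Itga6 at 46.2, 44.4 and 45.1 CPM in shNT and 73.1, 85.8 and 74.7 CPM in shMtfr1l (1.72-fold) and Itga7, the muscle laminin receptor, at 322, 324 and 331 CPM in shNT and 406, 369.7 and 386 CPM in shMtfr1l (1.19-fold). Of 26 matrix proteases and inhibitors 3 rose and 6 fell, with the membrane protease Mmp15 at 38.1, 39.3 and 40.1 CPM in shNT and 84.6, 77.1 and 78.4 CPM in shMtfr1l (2.04-fold higher) and the inhibitors Timp1 (1.42-fold) and Timp3 (1.26-fold) lower.

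Of 32 fibroblast identity genes 11 fell and 1 rose, and 6 fell without replicate 2 of every group. Tcf21, which sets the fibroblast fate of epicardial cells, was at 439.8, 398 and 425 CPM in shNT and 271, 275 and 332 CPM in shMtfr1l (1.44-fold, adjusted p = 5.43e-08), with replicate 3 of shMtfr1l nearest to shNT. S100a4 fell 1.45-fold. Pdgfra, the receptor used to mark fibroblasts, had means of 232 and 209 CPM and was not called, though it was lower without shNT 1 (adjusted p = 0.0173) or number 1 (adjusted p = 0.0371). The single rise was Vim, vimentin (1.11-fold, adjusted p = 0.00631), whose call ended without number 1 or 2 or 3 (adjusted p from 0.054 to 0.0766).

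Markers of the epicardium and mesothelium, the cell layer that covers the heart and gives rise to many of its fibroblasts, fell in 10 of 19 tested members and rose in none (median log2 -0.54). Their summed level was 967 to 1008 CPM in shNT and 772 to 833 CPM in shMtfr1l. Bnc1, a zinc finger protein of mesothelium, was at 24.7, 28.9 and 27.1 CPM in shNT and 12.8, 10.6 and 10.5 CPM in shMtfr1l (2.38-fold, adjusted p = 2.32e-08). Lrrn4 was at 91.3, 83.2 and 95.4 CPM in shNT and 49, 52.2 and 44.7 CPM in shMtfr1l (1.85-fold), Gpm6a at 24.8, 21.1 and 22.5 CPM in shNT and 10.6, 13.8 and 10.2 CPM in shMtfr1l (1.98-fold) and Msln, mesothelin, at 78, 84.1 and 84.9 CPM in shNT and 48.8, 53.6 and 50.2 CPM in shMtfr1l (1.62-fold). In none of these 4 genes do the groups overlap. These falls move with those of the fibroblast and matrix genes, and their part in them was not tested. Scel, a protein of covering epithelia, named for its large fall, was at 53, 52.5 and 55.6 CPM in shNT and 24.7, 21.2 and 26.4 CPM in shMtfr1l (2.23-fold, adjusted p = 7.89e-11).

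**Figure D3:**
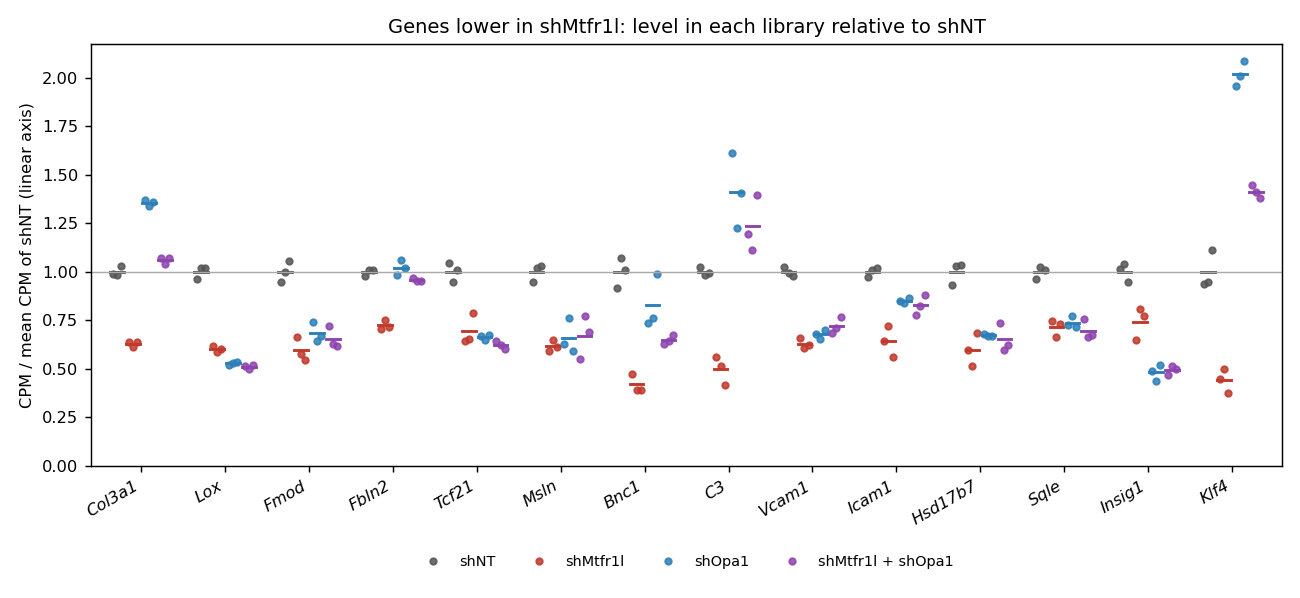
Level of 14 genes called lower in shMtfr1l, each library's CPM divided by the shNT mean of that gene (linear axis from 0), with dots for libraries and short lines for means of 3. All red dots (shMtfr1l) lie below 1, and for 10 of the genes, all but Col3a1, Fbln2, C3 and Klf4, every library with Opa1 knockdown lies below 1 too.

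Markers of other cell types were looked at for the same libraries. Of 21 tested leukocyte and macrophage markers none was called, and their summed level varied widely within the groups, at 621, 411 and 396 CPM in shNT and 355, 838 and 210.4 CPM in shMtfr1l. The T and B cell markers Cd3e and Cd79a were below the count filter. Of 16 endothelial markers 3 rose and 2 fell, with Kdr at 9.22, 7.62 and 3.97 CPM in shNT and 16, 14.8 and 13.9 CPM in shMtfr1l, while the defining Pecam1 (means of 4.97 and 4.02 CPM) and Cdh5 (6.58 and 8.32 CPM) were low and not called. Of 8 Schwann and neural crest markers 1 fell, and no red blood cell marker passed the count filter. Of 10 tested pericyte and smooth muscle markers 1 rose and 1 fell, and their summed level did not overlap between the groups, at 634 to 646 CPM in shNT and 753 to 803 CPM in shMtfr1l. The one that rose was Des, which heart muscle makes too (347 to 484 CPM), and the one that fell was Cnn1, smooth muscle calponin (35.8, 31.5 and 33.2 CPM in shNT and 25.6, 17.7 and 19 CPM in shMtfr1l; 1.61-fold). The part of such cells in the results was not tested. Of 12 cardiomyocyte markers 9 rose and 1, Nppa, fell. The groups of those 9 did not overlap, which held for 26% of all genes tested and for 1467 of the 1523 called ones. The summed level of the cardiomyocyte list was 4264 to 4431 CPM in shNT and 5458 to 5854 CPM in shMtfr1l. Of 12 fibroblast markers 5 fell and 2, Col1a1 and Vim, rose. Their summed level overlapped between the groups, at 35800 to 38624 CPM in shNT and 35772 to 37866 CPM in shMtfr1l.

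Inflammatory and acute phase genes held the largest fold lower among called genes with separate groups and 2 CPM or more on average. Saa3, an acute phase protein that macrophages and activated fibroblasts secrete (mm10 chromosome 7, 46711998 to 46715676, minus strand), was at 14, 5.86 and 13.1 CPM in shNT and 1.35, 0.526 and 1.22 CPM in shMtfr1l (10.5-fold lower, log2 -3.39 ± 0.38; adjusted p = 1.14e-07). All shMtfr1l libraries were above the floor of 3 counts, and the shNT libraries differed among themselves by over 2-fold. C3, the central complement protein, was at 88.5, 84.9 and 85.6 CPM in shNT and 48.4, 44.4 and 36 CPM in shMtfr1l (2.01-fold, adjusted p = 2.49e-05), Serpina3n at 114, 98.7 and 118 CPM in shNT and 73.2, 68.6 and 74.3 CPM in shMtfr1l (1.53-fold) and Serpina3g at 42.4, 36 and 29.8 CPM in shNT and 20.0, 22.7 and 19.7 CPM in shMtfr1l (1.73-fold). Serpina3h, a further member of this cluster of near-identical genes, was at 1625, 1473 and 1509 CPM in shNT and 879.7, 954 and 883 CPM in shMtfr1l (1.7-fold). Reads shared between such copies cannot be told apart, so the split among the 3 is uncertain. Together 5 of 16 acute phase and complement genes fell and 2 rose. The leukocyte marker sums given above overlapped between the groups, and their part in these falls was not tested.

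Of 16 adhesion and immune surface genes 5 fell and 1 rose. Vcam1, which binds leukocyte integrins, was at 285, 276 and 272 CPM in shNT and 182, 168 and 173 CPM in shMtfr1l (1.59-fold, adjusted p = 2.59e-11) and Icam1 at 85.9, 89.1 and 90.4 CPM in shNT and 56.9, 63.5 and 49.8 CPM in shMtfr1l (1.56-fold, adjusted p = 1.51e-07). Of 26 chemokines, cytokines and prostaglandin enzymes 5 fell (2 or 3 without either of shNT 1 and 3, either of shMtfr1l 1 and 3, or any replicate number, and 3 with the replicate block or without robust estimation) and none rose, among them Cxcl16 (1.43-fold), the prostacyclin synthase Ptgis (1.2-fold) and the cyclooxygenase Ptgs1 (1.3-fold). Of 30 interferon response genes 2 rose and none fell. In all 24 of the 30 had a log2 fold change above 0, against 7156 of all 14162 genes tested, with a median of 0.31. The summed level, which overlapped between groups, was 950.3, 832 and 970.2 CPM in shNT and 1006, 899.8 and 1363 CPM in shMtfr1l. In the first sample set, described below, the list median went the other way, at a log2 difference of -0.55. Calls ended for Cxcl16 without number 3 (adjusted p = 0.084) and Ptgs1 without number 1 or 2 (adjusted p from 0.0523 to 0.0564).

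Signalling lists held genes that fell, and their counts stand beside 5.19% of all genes called lower and 5.56% called higher. Of 21 BMP ligands, antagonists and targets 6 fell and none rose: the ligands Bmp4 (72, 77 and 81 CPM in shNT and 58.8, 50.9 and 56.4 CPM in shMtfr1l; 1.39-fold), Bmp3 and Bmp6, the modulator Bmper (1.43-fold) and the target genes Id1 (38.4, 29.6 and 35.9 CPM in shNT and 22.1, 26.3 and 20.2 CPM in shMtfr1l; 1.51-fold) and Id3 (252, 215 and 232 CPM in shNT and 179, 158 and 181 CPM in shMtfr1l; 1.35-fold), which are inhibitors of helix-loop-helix factors. In the TGF-beta list 5 of 27 fell and 3 rose (1 without number 1). The activin subunit Inhbb (1.41-fold), the activin trap Fst (1.46-fold) and the receptor Acvrl1 (1.26-fold) fell, and the ligands Tgfb2 (1.2-fold) and Tgfb3 (1.18-fold) rose. Of 15 Notch genes 2 fell, the ligand Jag1 (75.6, 78.2 and 92.8 CPM in shNT and 54.5, 48.9 and 49.4 CPM in shMtfr1l; 1.61-fold) and the target Hes1 (46.3, 52.2 and 51.6 CPM in shNT and 31.2, 32.5 and 35.2 CPM in shMtfr1l; 1.52-fold), and 1 rose, Rfng, a glycosyltransferase that tunes Notch (9.65, 11.2 and 9.74 CPM in shNT and 23.8, 23.4 and 20.8 CPM in shMtfr1l; 2.22-fold). Of 28 Wnt genes 3 fell and 1 rose. Sfrp2, a secreted Wnt modulator, was at 6.29, 8.87 and 5.86 CPM in shNT and 1.82, 2.86 and 1.97 CPM in shMtfr1l (3.18-fold, adjusted p = 3.02e-07) and Dkk3 rose 1.42-fold (131, 153 and 151 CPM in shNT and 213, 203 and 202 CPM in shMtfr1l). The Notch and Wnt counts exceed the shares of all genes by no more than 2 genes. Klf4, a pluripotency and injury response factor that was among the 15 largest falls, was at 61.1, 61.7 and 72.2 CPM in shNT and 29.2, 32.3 and 24.5 CPM in shMtfr1l (2.27-fold, adjusted p = 5.40e-13). Calls ended for Bmp3 without number 2 or 3 (adjusted p from 0.0615 to 0.0758), Bmp6 without shNT 2 or number 2 or 3 (adjusted p from 0.0704 to 0.0889) and Tgfb3 without number 1 (adjusted p = 0.141).

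Genes of sterol synthesis fell in 14 of 30 tested members and rose in none, with 8 calls without shNT 3 or without number 1 (median log2 -0.25, summed level 2468 to 2669 CPM in shNT and 2199 to 2359.9 CPM in shMtfr1l). They cover the pathway from the first committed steps to its end. Idi1, which isomerises isopentenyl diphosphate, was at 62.5, 61 and 61.9 CPM in shNT and 37.1, 42.5 and 52.8 CPM in shMtfr1l (1.4-fold). Sqle, which opens the sterol branch by oxidising squalene, was at 89.7, 95.4 and 94.1 CPM in shNT and 69.5, 61.9 and 68.2 CPM in shMtfr1l (1.4-fold, adjusted p = 1.02e-05). Hsd17b7, a reductase late in the pathway, was at 45.5, 50.5 and 50.8 CPM in shNT and 29.2, 25.2 and 33.4 CPM in shMtfr1l (1.67-fold, adjusted p = 2.92e-06), and Sc5d, a desaturase near its end, at 50.9, 56.2 and 53.3 CPM in shNT and 33.2, 37.5 and 34.3 CPM in shMtfr1l (1.53-fold, adjusted p = 5.70e-06). Insig1, which retains the sterol sensor in the endoplasmic reticulum and is itself a target of the pathway's SREBP factors, was at 137, 141 and 128 CPM in shNT and 88.2, 109.6 and 105 CPM in shMtfr1l (1.35-fold, adjusted p = 1.04e-04). No shNT library overlaps a shMtfr1l library in these 5 genes, and the Idi1 call ended without number 1 (adjusted p = 0.0924). In shOpa1 against the same shNT libraries 20 of the 30 sterol genes were lower and 1 was higher (median log2 -0.41). Over all genes tested 15.1% were lower and 14.3% higher there. In the double knockdown against shOpa1, 2 of the sterol genes were lower, against 2.46% of all genes.

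SREBP factors act on promoters together with NF-Y, which binds CCAAT, so the 250 bases before the start of 4 of these genes are shown, 5′ to 3′ along the gene's strand (RefSeq, GRCm38.p6). Capitals mark CCAAT, which reads ATTGG in reverse, and in Idi1 also the E-box CAGCTG that runs into it.
Hsd17b7 (chr1:169969206-169969455, minus strand): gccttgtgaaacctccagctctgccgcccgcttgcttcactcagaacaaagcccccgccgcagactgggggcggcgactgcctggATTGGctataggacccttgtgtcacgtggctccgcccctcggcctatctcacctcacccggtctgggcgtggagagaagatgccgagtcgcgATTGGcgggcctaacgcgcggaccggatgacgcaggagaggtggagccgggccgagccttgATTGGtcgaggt
Sc5d (chr9:42264301-42264550, minus strand): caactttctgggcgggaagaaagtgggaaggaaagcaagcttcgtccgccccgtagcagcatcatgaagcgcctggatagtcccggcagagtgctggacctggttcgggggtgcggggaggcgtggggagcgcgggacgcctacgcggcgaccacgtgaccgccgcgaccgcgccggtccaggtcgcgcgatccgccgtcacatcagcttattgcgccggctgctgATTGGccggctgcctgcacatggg
Idi1 (chr13:8885356-8885605, plus strand): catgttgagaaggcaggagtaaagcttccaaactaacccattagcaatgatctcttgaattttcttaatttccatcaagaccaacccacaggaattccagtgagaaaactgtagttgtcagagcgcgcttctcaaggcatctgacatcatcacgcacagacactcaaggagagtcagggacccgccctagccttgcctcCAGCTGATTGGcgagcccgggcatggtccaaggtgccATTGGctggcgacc
Insig1 (chr5:28071162-28071411, plus strand): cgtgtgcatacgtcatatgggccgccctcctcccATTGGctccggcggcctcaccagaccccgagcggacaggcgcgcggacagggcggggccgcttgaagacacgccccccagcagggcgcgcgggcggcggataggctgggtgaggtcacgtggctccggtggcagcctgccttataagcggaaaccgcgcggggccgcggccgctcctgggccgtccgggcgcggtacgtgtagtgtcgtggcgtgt

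CCAAT lies 3 times in the Hsd17b7 stretch, 2 times in that of Idi1 and once each in those of Sc5d and Insig1. Of the 14 sterol genes that fell 13 matched the promoter table, with 15 starts in all. Each of the 13 held CCAAT, on either strand, in the window of 300 bases of at least 1 of its starts, against 41.1% of the 27025 genes of the table counted in this way. Over the whole list only 21 of 30 members matched, so the list as a whole is not compared with other promoters. CCAAT lay in 18 of these 21 (85.7%), so it was also found in members that did not fall. The sterol response element TCACNCCAC lay in a window of Hmgcs1 alone among the 13. Fatty acid synthesis and desaturation genes moved both ways, 5 of 26 lower (3 without shNT 3, and 2 without number 3) and 3 higher (none or 1 without shNT 2, shMtfr1l 1, shMtfr1l 2 or number 1 or 2), with the desaturase Scd2 at 593, 675 and 621 CPM in shNT and 422, 519 and 439 CPM in shMtfr1l (1.37-fold lower).

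Glycolysis and hypoxia genes had 5 of 31 lower (3 without any of the replicate numbers) and 2 higher. Ndrg1 was at 57.5, 58.6 and 49.6 CPM in shNT and 33.3, 33.3 and 31.8 CPM in shMtfr1l (1.68-fold lower) and Slc16a3, the lactate exporter, at 37.4, 35 and 28.3 CPM in shNT and 22.4, 22.5 and 19.7 CPM in shMtfr1l (1.56-fold lower), while Hk2, the muscle hexokinase, was at 66, 82.6 and 77.6 CPM in shNT and 121, 110.3 and 104 CPM in shMtfr1l (1.48-fold higher). Antioxidant genes split into 3 higher (1 without shNT 1 or number 1), with Gpx3 at 1985, 1956 and 2027 CPM in shNT and 2445, 2419 and 2360.0 CPM in shMtfr1l (1.21-fold), and 3 lower, with the secreted superoxide dismutase Sod3 at 143, 140.4 and 150.0 CPM in shNT and 88.7, 84.3 and 93.6 CPM in shMtfr1l (1.63-fold). In the integrated stress response list 4 of 25 fell (none without number 1, and 1 or 2 without number 2, shNT 1, shNT 2 or shMtfr1l 1) and 1 rose. The unfolded protein response had 4 of 23 higher (1 or 2 without shNT 1, shMtfr1l 1, shMtfr1l 3 or any number, and 2 with the 2 groups alone). The cell cycle had 3 of 42 higher (1 without shNT 2 or number 2), near the 5.56% of all genes. The p53 targets had 3 of 24 lower (1 without number 2) and 1 higher, beside 5.19% and 5.56% of all genes.

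**Figure D4:**
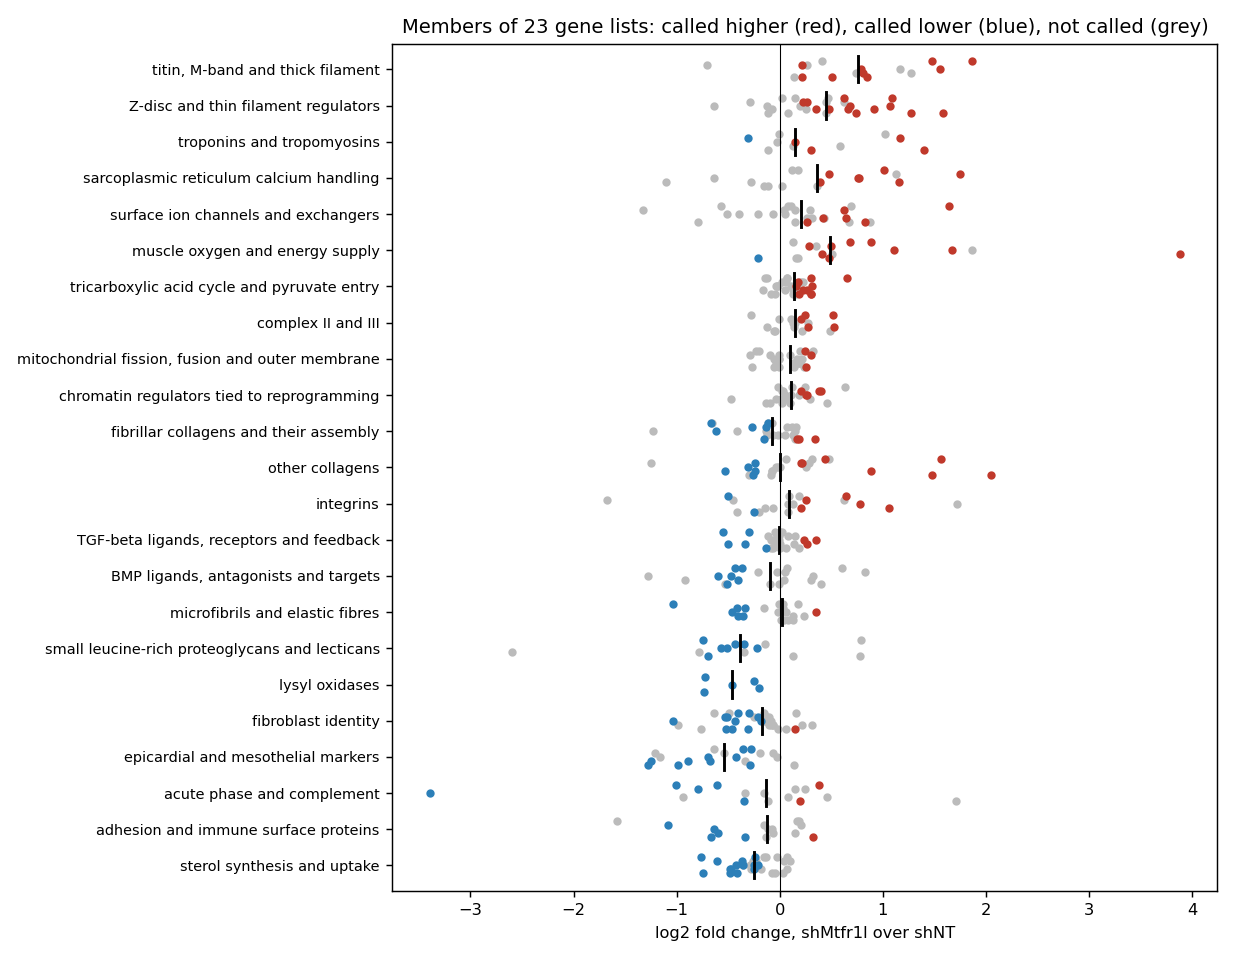
Log2 fold change of shMtfr1l over shNT (horizontal axis) for every tested member of 23 gene lists (rows). Dots are genes, called higher (red), called lower (blue) or not called (grey), and the black bar is the list median, which is 0.76 for titin, M-band and thick filament genes and -0.54 for epicardial and mesothelial markers.

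Mtfr1l knockdown was also present in the double knockdown, whose proper control is shOpa1 alone, and these 6 libraries share none with the comparison above. Opa1 itself was not equal in them: it was at 7.43, 6.85 and 12.6 CPM in shOpa1 and 20.7, 16 and 18.2 CPM in the double knockdown, 2.04-fold higher in the double knockdown (log2 1.03, adjusted p = 0.00745), though below every shNT library. The values beside shOpa1 thus hold a weaker Opa1 knockdown as well as the Mtfr1l knockdown, and the part of each was not tested. There 675 genes were called (4.77%), 327 higher (2.31%) and 348 lower (2.46%). Without replicate 1 of every group the number was 370, and without replicate 2 it was 199. Of the 1523 genes called in shMtfr1l against shNT 1069 had the same sign beside shOpa1 (70.2%, against 56.1% of all genes tested), 260 were called the same way and 17 the opposite way. The share with the same sign was 62.7% for the genes called higher and 78.2% for those called lower. The direct test of the difference between the effects called 504 genes (3.56%), 222 without replicate 1 and 161 without replicate 2. Of these 504 genes 381 belong to the 1523, which the same shNT and shMtfr1l libraries had picked. Mtfr1l itself was one of them. It fell by less in the double knockdown (65.8, 71.1 and 72 CPM in shOpa1 and 22.8, 31 and 27.8 CPM in the double knockdown; log2 fold change -1.35 against -2.13, adjusted p of the difference = 0.00146), and the part of this in the other differences was not tested.

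Some sarcomere genes, and Rbm24 and Gja1 outside those lists, rose in both settings. Most sarcomere list medians were smaller beside shOpa1. In log2, with the median against shNT in brackets, they were -0.29 (0.41) for myosin heavy chains and -0.0088 (0.20) for light chains. Actins had -0.023 (0.77) and the Z-disc list 0.056 (0.44). Titin and the M-band had 0.38 (0.76), and troponins and tropomyosins 0.24 (0.15). Among other cardiac lists the calcium store had 0.32 (0.36), surface channels 0.24 (0.21), gap junctions and discs 0.20 (0.12) and muscle energy 0.40 (0.49). Cardiomyocyte markers had 0.45 (0.59), natriuretic genes -0.032 (0.32), cardiac transcription regulators 0.076 (0.11) and splicing regulators 0.0063 (0.093). Myh7 rose by log2 1.68 in shMtfr1l and by 1.98 beside shOpa1 (adjusted p = 6.98e-05), at 1.63, 1.28 and 0.477 CPM in shOpa1 and 5.31, 4.09 and 3.97 CPM in the double knockdown. Myh6 rose by 2.27 and 1.51 (adjusted p = 8.22e-04), at 36.8, 28.7 and 25.8 CPM in shOpa1 and 73.5, 82.6 and 104 CPM in the double knockdown, and the difference was not called (adjusted p = 0.124). Rbm24 (1.30 and 1.44), Actc1 (1.42 and 1.08), Mybpc3 (0.79 and 0.93) and Gja1 (0.54 and 0.66) rose in both as well. In the falling direction Sfrp2 (-1.67 and -1.40), Cd80, a costimulatory surface protein (-1.08 and -1.08), Bmp4 (-0.47 and -0.49), Inhbb (-0.50 and -0.73) and Serpina3n (-0.61 and -0.58) fell in both. The Cd80 call against shNT ended without number 1 (adjusted p = 0.0598). The 6 libraries with the Mtfr1l shRNA did not overlap the 6 without it for 226 of all genes (1.6%) and for 174 of the called ones.

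Other genes changed beside shNT and differed when Opa1 was also knocked down. Mb rose in shMtfr1l but stood at 9.51, 11.7 and 7.35 CPM in shOpa1 and 9.29, 14.4 and 15.2 CPM in the double knockdown (log2 fold change 0.45 between them, adjusted p of the difference of the effects = 0.00157). Saa3 was at 2.72, 2.24 and 2.53 CPM in shOpa1 and 2.66, 5.14 and 2.19 CPM in the double knockdown (log2 fold change 0.42, difference of the effects, adjusted p = 2.16e-05), between its levels in shNT and shMtfr1l. Lox was at 924, 940.2 and 958 CPM in shOpa1 and 919, 887 and 925 CPM in the double knockdown and had the smallest adjusted p of the difference (7.70e-10). Every library with Opa1 knockdown was lower than every shMtfr1l library. Vcam1, at 189, 181 and 195 CPM in shOpa1 and 191, 197 and 213 CPM in the double knockdown, was likewise lower in all 9 libraries than in shNT. Htra1, a secreted protease, was higher in all 9, at 297, 345 and 320.1 CPM in shNT and 525, 495 and 505 CPM in shMtfr1l and at 445, 485 and 429 CPM in shOpa1 and 438, 444 and 459.7 CPM in the double knockdown (adjusted p of the difference = 2.19e-07).

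**Figure D5:**
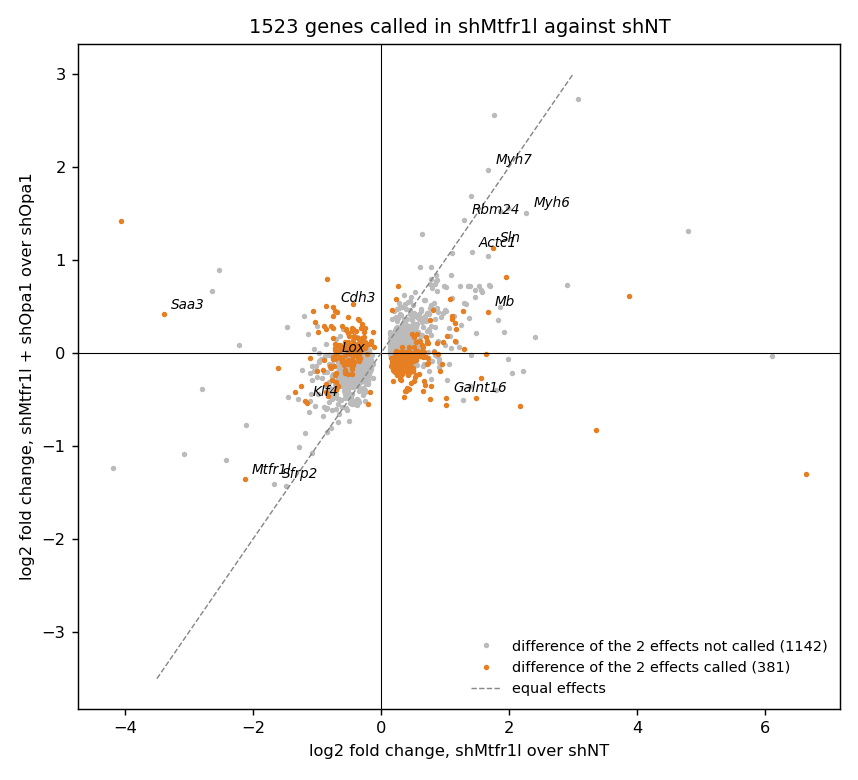
Log2 fold change of the double knockdown over shOpa1 (vertical axis) against that of shMtfr1l over shNT (horizontal axis) for the 1523 genes called in the latter. Orange points are the 381 genes called in the difference of both effects, grey points the other 1142, and the dashed line marks equal effects. Myh7 (1.68 and 1.98) lies near that line, while Galnt16 (1.02 and -0.48) lies across the horizontal zero line.

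In many of these genes the shNT libraries stood apart from all others. The 3 shNT libraries lay outside the range of the other 9 for 1174 of all genes tested (8.29%) and for 562 of the 1523 called genes (36.9%), 288 of them higher in shMtfr1l and 274 lower. The 3 shMtfr1l libraries lay outside the range of the other 9 for 1353 of all genes (9.55%) and for 700 of the called genes (46%). In each of the 10 genes with the smallest adjusted p of the difference shNT lay outside, and for Htra1 shMtfr1l did too. They were Lox, Galnt16, Vcam1, Htra1, Adamts1, Tmed10, Nacc2, Cdh3, Prss23 and Tagln2. Galnt16, a glycosyltransferase, was at 15.7, 17.5 and 16.4 CPM in shNT and 37.8, 28.3 and 34.7 CPM in shMtfr1l and at 66.3, 73.7 and 60.7 CPM in shOpa1 and 48.8, 46.4 and 48.7 CPM in the double knockdown, and Tmed10, a cargo receptor of the secretory pathway, at 145, 163 and 153 CPM in shNT and 229.9, 228 and 247 CPM in shMtfr1l and at 238, 242 and 244 CPM in shOpa1 and 236, 240.0 and 236 CPM in the double knockdown. Among the 74 genes that rose more than 2-fold the balance was different: shMtfr1l was the group outside for 53 and shNT for 12. Among the 41 genes that fell more than 2-fold shMtfr1l was outside for 21 and shNT for 11. Called genes were chosen by the distance between these same shNT and shMtfr1l libraries. That choice favours either group lying outside, so the shares among called genes are no separate evidence. Rn45s showed the same arrangement as Lox in the other direction, with the 3 shNT libraries lowest of all 12. Whether the shNT libraries differ from the rest for a reason other than the shRNA was not tested.

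Set directly against shOpa1, shMtfr1l differed in 4406 genes (31.1%), and Myh6 and Gja1 lay further apart than against shNT. Myh6 was at 36.8, 28.7 and 25.8 CPM in shOpa1 (adjusted p = 4.48e-07) and Gja1 at 67.3, 68.4 and 63.4 CPM (adjusted p = 1.84e-25). Klf4, low in shMtfr1l, was at 127, 131 and 136 CPM in shOpa1 (adjusted p = 5.25e-22), and Sfrp2 at 25.6, 25.9 and 25 CPM (adjusted p = 1.35e-16). The shNT level lies between the other 2 for these 4 genes.

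The first sample set holds 1 labelled sample of each shRNA in reprogramming at day 7, with 67068683 counts in shNT and 62923192 in shMtfr1l, and gives values with no test. For each sample 3 columns were summed. Its table was normalised separately, so its levels are not set against those above. The label of this shMtfr1l sample gives a knockdown percentage, unlike the labels of the second set. Mtfr1l stood at 79.2 CPM with shNT and 8.73 CPM with shMtfr1l. That log2 difference of -3.18 was a larger fall than the -2.13 of the second set. The part of the larger fall in the values below was not tested. Of the genes called higher in the second set 596 were also higher there (75.6%) and of those called lower 653 were also lower (88.8%), against the same sign in 62% of all genes tested. Rbm24 stood at 29.7 CPM with shNT and 93.8 CPM with shMtfr1l, Hopx at 13.9 CPM with shNT and 63.8 CPM with shMtfr1l and Gja1 at 242 CPM with shNT and 627 CPM with shMtfr1l. Loxl4 stood at 44.1 CPM with shNT and 17.1 CPM with shMtfr1l, Fmod at 37.1 CPM with shNT and 18.8 CPM with shMtfr1l and Klf4 at 33.3 CPM with shNT and 13.6 CPM with shMtfr1l. Some genes did not keep their direction. Itga8 stood at 405 CPM with shNT and 300.0 CPM with shMtfr1l, Casq2 at 664 CPM with shNT and 619 CPM with shMtfr1l, Dcn at 128 CPM with shNT and 162 CPM with shMtfr1l and Rn45s at 6166 CPM with shNT and 4226 CPM with shMtfr1l, and the vector genes Mef2c (531 CPM with shNT and 434 CPM with shMtfr1l), Tbx5 (803 CPM with shNT and 612 CPM with shMtfr1l) and Gata4 (931 CPM with shNT and 781 CPM with shMtfr1l) were lower in shMtfr1l, while Rbm24, Hopx and Gja1 were higher. Saa3 was all but absent from that set, with 0.0912 CPM with shNT and 0.125 CPM with shMtfr1l.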

How the data were processed

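The authors deposited raw gene counts. Per the file headers they were made with featureCounts 2.0.6 in paired, reverse-stranded mode on a UCSC mm10 annotation. Mates were not required to count once per pair: 65.9% of the counts from 1 to 20 were even, so reads come mostly in pairs and a count is not an independent molecule. The submitters' processing notes also name FastQC and DESeq2. For the aligner, nothing is given in those sources. Per the labels' protocols total RNA was extracted with Trizol and libraries were made by a sequencing company. 12 count columns of the deposited tables were not used.

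edgeR 4.0.16 in R 4.3.3 was run on the counts of all 12 libraries of the second set, so that the 4 groups of 3 share the estimate of spread (8 residual degrees of freedom, common biological coefficient of variation 12.0%). Genes were kept by filterByExpr (14162 of 23420), scaled by TMM and tested with the robust quasi-likelihood test. The p-values were adjusted by Benjamini and Hochberg over all genes tested, and the standard error is the log2 fold change divided by the root of F. A call is an adjusted p below 0.05. The prior count for log2 values of single libraries and of the first set was 2. The floor was 3 counts, which covers counting error only. The scripts were tested on simulated data. Promoters came from a RefSeq table of 250 bases before to 50 after each start. The first-set columns were summed per sample and scaled apart, with no test.

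Titles give each replicate number 1 day in every group, so numbers pair the samples by label. The deviations of same-numbered shNT and shMtfr1l libraries from their group means correlated at -0.026 to 0.12. A fit with the replicate number as a block, other scalings, filters and tools, and leaving out libraries were the alternatives.

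Members and gene lists were chosen with earlier results of these data known. Named genes are the targets and vector factors, the 15 largest rises and falls (called, mean of at least 2 CPM, groups apart), the 10 largest gains and losses in CPM, members of lists of up to 12 genes, the 6 smallest adjusted p of longer lists, and the 10 smallest of the difference test. Pecam1, Cdh5, Cd3e, Cd79a, Myod1 and Myog were named beyond this rule after their values were seen. A few genes that the rule picks are not reported here. Strand was kept in counting.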

Additional observations from a re-analysis of the deposited data

Results flagged for a closer look

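For 77 of the 170 genes named in the text the effect of Mtfr1l knockdown was called different with and without Opa1 knockdown. The test was that of the difference itself (edgeR quasi-likelihood test, adjusted p below 0.05), which called 3.56% of all genes tested. Most named genes were picked by their values in shMtfr1l against shNT, and 10 by this very test. It uses the same shNT and shMtfr1l libraries again, so the choice favours differences opposite to the first effect. The 77 are therefore no separate evidence of a difference. The values below are log2 differences, the effect in the double knockdown over shOpa1 less the effect in shMtfr1l over shNT, so a negative value means that a rise was smaller or turned around beside shOpa1. For many of these genes the 3 shNT libraries stood outside the range of the other 9, as described above for the 10 with the smallest adjusted p, and what sets the groups apart was not tested.

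Contractile and Z-disc genes with a smaller rise beside shOpa1 were Myom1 (-0.59), Myom2 (-0.34), Csrp3 (-0.82), Cap2 (-0.49), Des (-0.27), Ankrd1 (-0.39) and Tnni3 (-0.91). Genes of the calcium store were Atp2a2 (-0.41), Sln (-0.61) and Trdn (-0.84). The natriuretic genes Furin (-0.57) and Npr3 (-1.07) and the muscle energy genes Mb (-1.22), Lpl (-0.48), Art3 (-0.71) and Art1 (-3.27, with shNT close to the floor) were others. So were Rbfox2 (-0.36), Smarca4 (-0.32), Kdm6b (-0.38), Slc25a39 (-0.47), Uqcr10 (-0.45) and Hk2 (-0.36).

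Rises of matrix and signalling genes that were smaller or opposite were those of Frem2 (-1.13), Col26a1 (-1.84), Col6a6 (-0.77), Ltbp1 (-0.39), Mmp15 (-0.84), Itga8 (-0.56), Tgfb2 (-0.29), Tgfb3 (-0.26) and Rfng (-1.02). The genes with the smallest adjusted p in this direction were Galnt16 (-1.50), Htra1 (-0.68), Adamts1 (-0.65), Tmed10 (-0.64) and Prss23 (-0.52).

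Falls that were smaller or turned around beside shOpa1 have positive values. Matrix genes were Lox (0.69), Loxl2 (0.29), Loxl3 (0.34), Loxl4 (0.66), Col3a1 (0.31), Fmod (0.68), Lum (0.55), Acan (0.69), Bgn (0.21), Fbln2 (0.38), Lama4 (0.42), Timp1 (0.69) and Timp3 (0.26). Fibroblast and epicardial genes were Tcf21 (0.43), S100a4 (0.57), Bnc1 (0.90), Lrrn4 (0.82), Msln (0.72), Scel (0.62) and Klf4 (0.67). Inflammatory genes were Saa3 (3.81), C3 (0.81), Serpina3g (0.66), Serpina3h (0.47), Vcam1 (0.76), Icam1 (0.60), Cxcl16 (0.73) and Ptgs1 (0.62). Metabolic genes were Hsd17b7 (0.70), Sqle (0.40), Idi1 (0.54), Insig1 (0.46), Slc25a1 (0.42), Ndrg1 (0.92), Slc16a3 (0.59) and Sod3 (0.40). The remaining ones were Bmper (0.39), Nacc2 (0.97), Cdh3 (1.24), Tagln2 (0.52) and Mtfr1l itself (0.78).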

How the results depend on the processing

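Most alternatives changed 1 choice. DESeq2 brought its own dispersions and size factors, and the 2 groups alone, halved counts and fewer libraries also changed which genes passed the filter. The fits without robust estimation and without Rn45s and Lars2 were chosen after seeing the data. The 1523 calls became 1494 with RLE size factors, 1498 with upper quartile scaling (713 higher, 785 lower), 1643 with no filter, 1543 with at least 1 CPM in 3 libraries, 1675 with DESeq2, 1396 with the 2 groups alone, 1548 with counts halved, 1387 without robust estimation and 1521 without Rn45s and Lars2. With 1 of the 6 libraries or 1 replicate number left out the calls ranged from 790 to 1289, those higher from 331 to 661 and those lower from 424 to 628. The lone or paired libraries left were assumed to vary like the other groups. Over the same settings calls beside shOpa1 ranged from 199 to 738, those of the difference of the effects from 161 to 488 and those of shMtfr1l against shOpa1 from 3407 to 4503. The fit of the 2 groups alone cannot give the difference of effects. The replicate block gave 1387 calls (700 higher, 687 lower), 576 beside shOpa1, 411 for the difference and 4247 against shOpa1, and among the genes named in the text it ended the calls of Myl7 and Gata4 and no other call. Direction turned for 2 genes that were not called, over the settings that leave libraries out: Nppb ranged from a log2 fold change of -0.11 (without shMtfr1l replicate 1, and -0.047 without replicate 1) to 0.33, and Tnni1 from -0.041 (without shNT replicate 1, and -0.010 without shMtfr1l replicate 3) to 0.30. List medians ranged from -0.37 to 0.023 for acute phase and complement genes (above 0 without shMtfr1l replicate 2 and, at 0.021, without replicate 2), from -0.31 to 0.018 for chemokines and cytokines (without shNT replicate 1) and from -0.037 (without replicate 3, and -0.017 without shMtfr1l replicate 3) to 0.026 for fatty acid oxidation. The cause was not tested, and each such setting uses fewer libraries. The median log2 fold change of all genes was 0.0029, -0.0017 with RLE size factors and -0.0079 with upper quartile scaling.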
